A study of Mus musculus with 7 samples.

Results

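The genes described are those for the proteins of the cytoplasmic ribosome, the particle that translates nuclear messages. They were chosen by symbol, as rows named Rpl or Rps followed by a number and at most 1 letter, together with *Rplp0*, *Rplp1*, *Rplp2* and *Rpsa*. Rows for pseudogenes (symbols with -ps) and for the ribosomal S6 kinases were left out. The rule found 83 of 20643 genes in the table, and all of them had a value in every library. They are 43 genes of the large subunit, 30 of the small subunit, 3 of the P stalk and 7 paralogues or extra copies (*Rpl3l*, *Rpl6l*, *Rpl10l*, *Rpl32l*, *Rpl39l*, *Rps4l* and *Rps27l*).

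Total RNA-seq libraries were made from prospermatogonia, the male fetal germ cells, sorted by EGFP from fetuses at 15.5 dpc, which the source name gives as 15 dpc. There were 3 libraries of the genotype H19Ter+neo (replicates 5, 6 and 7), 2 of H19Ter (replicates 3 and 4) and 2 of WT (replicates 1 and 2). In both mutants, homozygous for the targeted allele, a transcription terminator stands before the imprinting control region of *H19* and *Igf2*. H19Ter+neo also keeps the Pgkneo selection cassette, which Cre had removed in H19Ter. The lines go back to targeted 129S1 embryonic stem cells and all fetuses carried the TgOG2 transgene, in which *Pou5f1* sequences drive EGFP. The strain background of the mutants and the effect of the allele cannot be told apart here. Testes were pooled at digestion, and which litter each library came from was not stated, so that p-values measure the spread between these libraries. The libraries held 84.1 to 87.3 M read pairs counted to genes in H19Ter+neo, 37.5 and 51.2 M in H19Ter, and 45.1 and 45.9 M in WT. The 11 markers of male germ cells (among them *Ddx4* and *Dazl*) summed to 3681 to 4368 CPM (read pairs scaled to a common library total, log2 values undone) in every library, against 20.7 to 30.8 CPM for 10 Sertoli cell markers.

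Each ribosome joins a large and a small subunit, and nearly every ribosomal protein is present once in each particle. The genes for them are therefore expressed side by side, mostly as short and abundant mRNAs. Many of these mRNAs begin with a run of pyrimidines, the 5′ terminal oligopyrimidine tract, through which mTORC1 and the RNA-binding protein LARP1 control their translation. Ribosomal protein mRNAs have also been copied back into the genome many times as processed pseudogenes. Short reads from a gene and from such a copy are hard to assign. Whether this changed the values below was not tested.

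To show how near the copies are, 60 coding bases are given of *Rpl26* and *Rps26* and of a copy of each, with the bases that differ in capitals. The log2 differences of both genes were smaller in sums with their copies, as given below. *Rpl26* lies on chromosome 11 (68901583 to 68906989, plus strand of GRCm38, as are all coordinates here) and its processed pseudogene *Gm15772* on chromosome 5 (3236431 to 3236868, plus strand). *Rps26* lies on chromosome 10 (128624534 to 128626747, minus strand) and *Rps26-ps1* on chromosome 8 (107439131 to 107439579, minus strand). Sequences are from the GENCODE vM21 transcripts.
Rpl26: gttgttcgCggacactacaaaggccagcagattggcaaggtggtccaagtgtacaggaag
Gm15772: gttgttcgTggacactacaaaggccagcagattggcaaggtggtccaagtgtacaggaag
Rps26: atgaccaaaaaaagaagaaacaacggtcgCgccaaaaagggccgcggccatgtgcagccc
Rps26-ps1: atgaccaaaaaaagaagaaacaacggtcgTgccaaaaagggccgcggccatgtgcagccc

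Over their aligned lengths *Gm15772* was 99.5% identical to *Rpl26* and *Rps26-ps1* was 99.1% identical to *Rps26*. Per the paper, reads were paired and 50 bases long. A single 50-base read can fall where no base differs. The windows counted here stand for single reads, and how often both reads of a pair are shared was not tested. Over the 83 genes, a median of 40.1% of all 50-base windows of the transcripts were shared with another gene, and the share was 0 in *Rpl39l* and *Rpl3l* and highest, at 86.7%, in *Rps18*.

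The longest pyrimidine run near the RefSeq start is shown for genes whose levels differed in opposite directions between H19Ter+neo and WT. Each window holds 30 bases around the longest run within 50 bases of the RefSeq start (GRCm38.p6), with that run in capitals. Counted from that start, the run began at 23 in *Rps7*, -17 in *Rpl34* and -42 in *Rpl27*. It began at 14 in *Rpl11*, 3 in *Rpl13a* and 12 in *Rplp0*. The run of *Rpl27* thus lies before the start, and whether the others are the tract at the mRNA end was not tested. *Rps7* (chr12:28635910-28635939, minus strand), *Rpl34* (chr3:130730330-130730359, minus strand) and *Rpl27* (chr11:101442194-101442223, plus strand) were higher in H19Ter+neo. *Rpl11* (chr4:136053357-136053386, minus strand), *Rpl13a* (chr7:45128722-45128751, minus strand) and *Rplp0* (chr5:115559467-115559496, plus strand) were lower. The call of *Rpl34* was lost in most fits that left out a library, as given below. These genes are examples. Among others that were higher, the longest run was 9 bases in *Rps26*, *Rpl39l* and *Rps16* and 14 in *Rpl26*.
Rps7: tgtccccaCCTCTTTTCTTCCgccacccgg
Rpl34: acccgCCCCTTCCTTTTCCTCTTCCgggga
Rpl27: tcatcctcgCTCCTCCCTCCacacgccgga
Rpl11: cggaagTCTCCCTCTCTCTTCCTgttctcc
Rpl13a: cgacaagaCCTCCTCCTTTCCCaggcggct
Rplp0: ggaccgcctggTTCTCCTataaaaggcaca

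RefSeq windows were matched by symbol for 61 of the 83 genes, with 73 windows in all. Runs were searched from 50 bases before to 50 after the start, and need not lie in the mRNA. A run of at least 10 pyrimidines on the strand of the gene stood in 65.8% of these windows, against 18.1% of all 32851 windows. It was held by 13 of 19 genes called higher in H19Ter+neo than in WT, by 8 of 12 called lower and by 22 of 30 not past the threshold. The windows of 250 bases before to 50 after the start were also searched on both strands for short words. CCGGAAG, which contains the core that ETS factors bind, stood in 35.6% of the windows of these genes against 8.86% of all windows. AAGATGGC, which contains the core of YY1 sites, stood in 9.59% against 2.75%. The GC box GGGCGG stood in 57.5% against 35.7%, and TATAAA in 9.59% against 13.6%.

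Levels between genes were compared per length, as CPM per kb of exons. In WT the highest was *Rplp1*, an acidic protein of the P stalk, at 726 ± 67.1 CPM per kb (SD, n = 2). Next came *Rpl4* of the large subunit at 712 ± 47.2, which did not differ from *Rplp1* beyond that spread, *Rps15* of the small subunit at 560 ± 13.1, *Rpl32* at 478 ± 17.3 and *Rpl8* at 416 ± 8.07 CPM per kb. The median over the 83 genes was 112 CPM per kb. The lowest were *Rpl3l* at 1.18 ± 0.458, *Rpl24* at 3.05 ± 0.403, *Rpl32l* at 3.76 ± 0.461, *Rps10* at 5.55 ± 0.142 and *Rpl6l* at 9.91 ± 0.377 CPM per kb. *Rpl32l* and *Rpl6l* are annotated as processed pseudogenes in GENCODE vM21 although their symbols have no -ps. *Rpl24* and *Rps10* encode proteins of every ribosome, and 77.7% and 44.9% of their 50-base windows were shared with other genes. Of the reads on each gene and its pseudogene rows, the pseudogene rows held 76.7% for *Rpl24*, 32.6% for *Rps10* and 27.0% for *Rpl13a*. How far such sharing lowers the level counted for a gene was not tested.

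**Figure D1:**
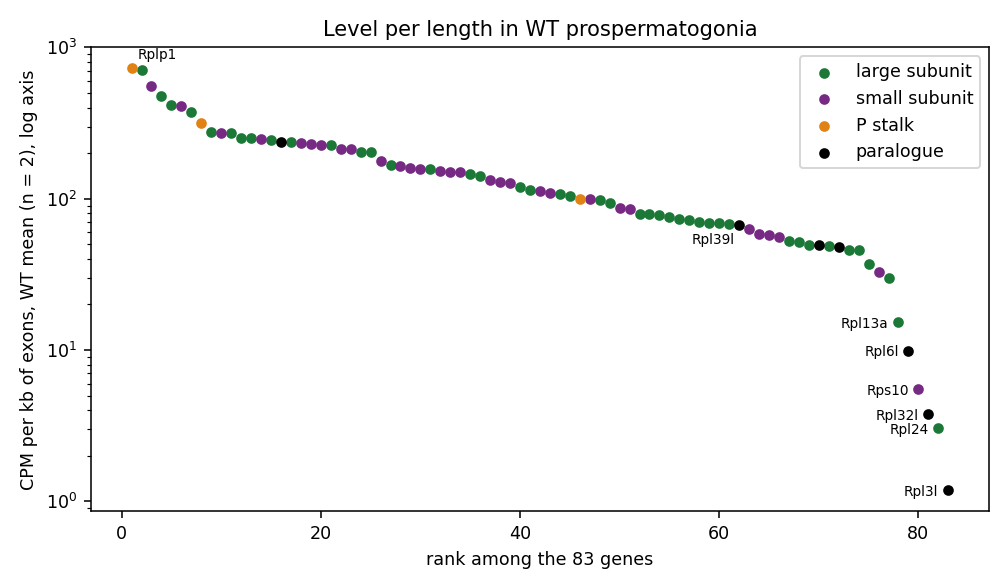
CPM per kb of exons (log axis) of the 83 ribosomal protein genes in WT, as the mean of 2 libraries, by rank, with colours for the class of each gene. Most genes lie on a gentle slope, and *Rpl13a*, *Rpl6l*, *Rps10*, *Rpl32l*, *Rpl24* and *Rpl3l* fall away at the low end, between 15.4 and 1.18 CPM per kb.

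The share of all read pairs that fell in these genes was 2.66%, 2.61% and 1.98% in H19Ter+neo replicates 5, 6 and 7, 2.19% and 1.94% in H19Ter replicates 3 and 4, and 2.09% and 2.23% in WT replicates 1 and 2. Replicates 5 and 6 of H19Ter+neo stood above the other 5 libraries and replicate 7 did not. The summed level was 24440 ± 3921 CPM in H19Ter+neo (SD, n = 3), 19942 ± 1564 CPM in H19Ter (SD, n = 2) and 22005 ± 1368 CPM in WT (SD, n = 2), so that the genotypes overlapped. In bulk samples, fewer cells of a type and less RNA per cell cannot be told apart.

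Libraries of one genotype differed over nearly the whole set. H19Ter+neo replicate 5 was above replicate 7 in 80 of 83 genes, with a median log2 difference of 0.49, and replicate 6 was above replicate 7 in 81, with a median of 0.36. H19Ter replicate 3 was above replicate 4 in 79 genes (median 0.18) and WT replicate 2 above replicate 1 in 76 (median 0.13). Over all genes these 4 medians were within 0.01 of 0. The shift is common to the ribosomal protein genes of a library, and its size between replicates 5 and 7 is larger than each median difference between genotypes of these 83 genes given below. The summed levels of the 6 Leydig cell markers in the table, of 7 listed, were 32.0, 8.13 and 6.19 CPM in H19Ter+neo replicates 5, 6 and 7, 28.3 and 12.1 CPM in H19Ter, and 12.6 and 16.8 CPM in WT. None of these 6 markers was at 0 in any library. Those of 10 interstitial and peritubular markers were 85.6, 49.2 and 55.1 CPM in H19Ter+neo, 126 and 63.3 CPM in H19Ter, and 52.6 and 64.9 CPM in WT, again with none at 0. H19Ter+neo replicate 6 was high in ribosomal protein genes and low in both marker lists. Endothelial markers, by contrast, separated the mutants from WT. The 6 of them summed to 37.9, 37.3 and 42.9 CPM in H19Ter+neo and 38.9 and 39.9 CPM in H19Ter, against 26.7 CPM in each WT library, with none at 0. Of these 6, 5 (83.3%) were called higher in H19Ter+neo and 2 (33.3%) in H19Ter than in WT, against 27.7% and 14.1% of all genes. All 6 differences were positive in both. Those of all 10 interstitial and peritubular and all 6 Leydig cell markers were also positive in H19Ter against WT. In H19Ter+neo against WT 3 of these 10 and 1 of these 6 were. The 1 erythroid marker in the table, of 6 listed, was at 4.34 to 5.82 CPM in H19Ter+neo and 3.53 and 2.66 CPM in H19Ter, against 2.75 and 1.66 CPM in WT. The part of these cells in the results was not tested.

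**Figure D2:**
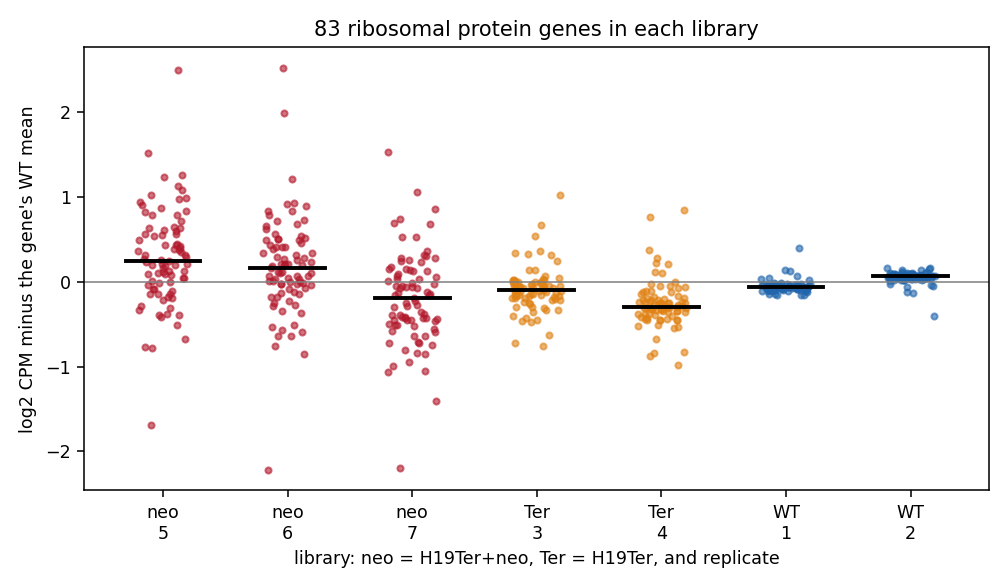
Log2 CPM of each of the 83 ribosomal protein genes minus its own mean over both WT libraries, by library, with 1 point per gene and a bar at the median. WT points lie near 0 by construction, H19Ter+neo replicates 5 and 6 (neo) lie mostly above 0, and H19Ter+neo replicate 7 and H19Ter replicate 4 (Ter) mostly below.

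Expression in H19Ter+neo was first compared with WT. The question was whether the genes for the translation machinery differed in germ cells in which transcription into the imprinting control region is blocked and the selection cassette kept. Ribosomal protein genes went both ways, with 24 higher and 15 lower of 83, at a median log2 difference of 0.06 (0.015 for all genes). Called genes are those with an adjusted p under 0.05 in a limma fit of the log2 CPM of all 7 libraries, with Benjamini-Hochberg adjustment over 20643 genes. The 39 called are 47.0% of the set, against 54.4% of all genes tested, of which 27.7% were higher and 26.7% lower. Libraries did not overlap, with H19Ter+neo above, in 24 genes (28.9%, against 36.6% of all genes), and below in 18 (21.7%, against 35.2%), while 71.8% of all genes did one or the other. The small subunit had 12 higher and 4 lower of 30, the large subunit 10 higher and 6 lower of 43. Leaving out each library in turn kept 12 of the rises and 6 of the falls in every fit. Without WT replicate 1 the calls fell to 13 higher and 9 lower, and without H19Ter+neo replicate 5 the median was -0.041.

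**Figure D3:**
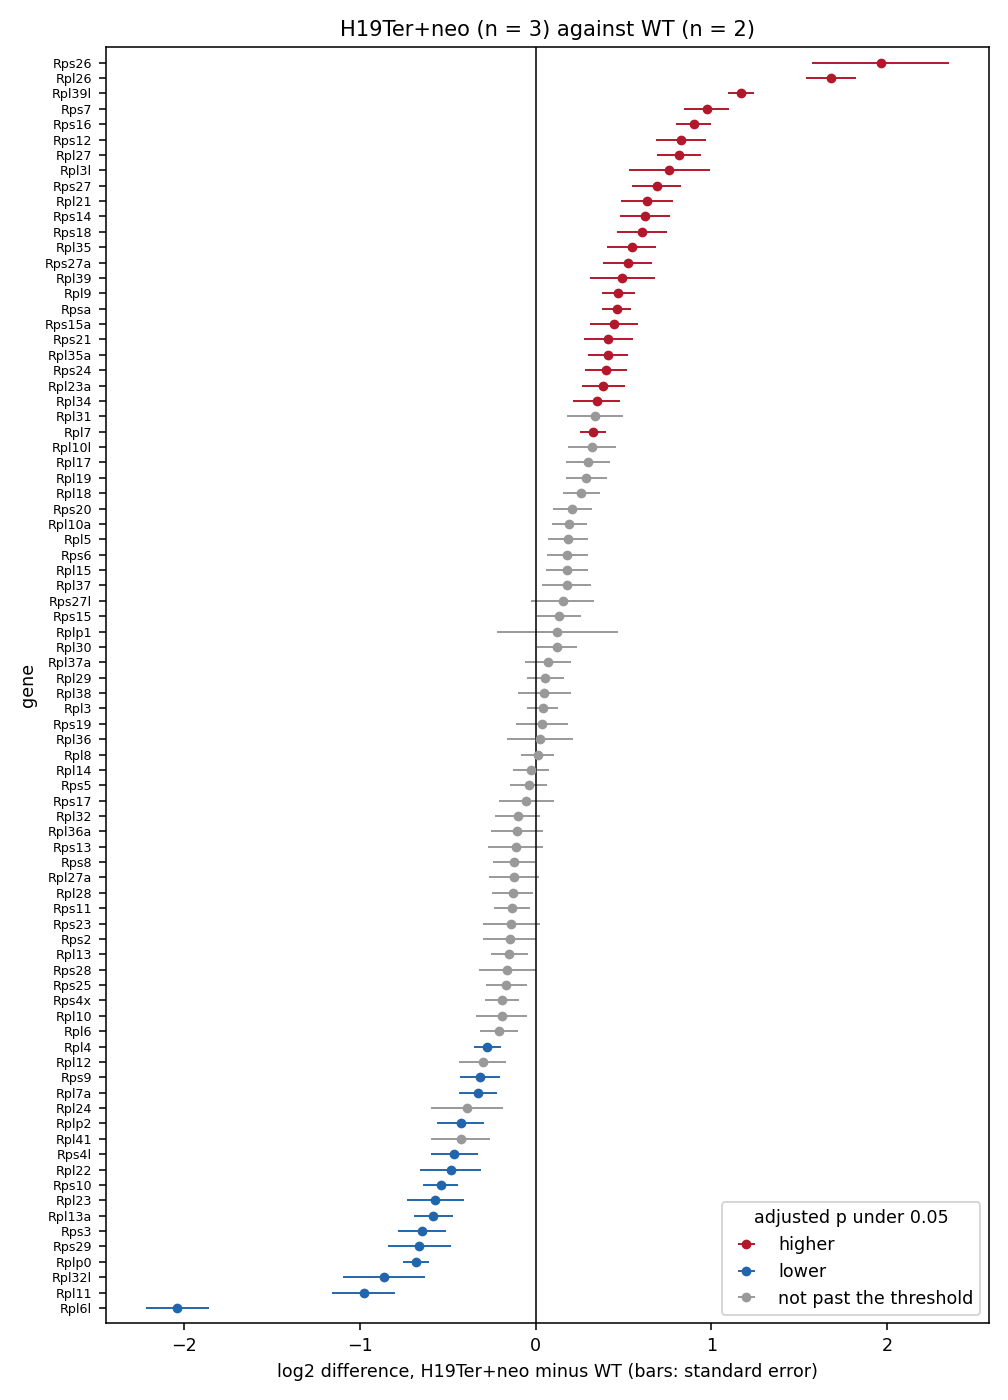
Log2 difference between H19Ter+neo (n = 3) and WT (n = 2) of the ribosomal protein genes, 1 of which is not drawn, with its standard error from limma. *Rps26* and *Rpl26* lie farthest to the right at 1.96 and 1.68 and *Rpl6l* farthest to the left at -2.04, and most genes not past the threshold lie within 0.4 of 0.

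*Rps26*, at the mRNA exit of the small subunit, had 551, 561 and 177 CPM in H19Ter+neo, against 90.5 and 105 CPM in WT. Replicates 5 and 6 were over 3 times as high as replicate 7, which was still above both WT libraries. The log2 difference was 1.96 (standard error 0.39, limma adjusted p = 0.00184). *Rps7*, of the small subunit, had 1101, 877 and 769 CPM in H19Ter+neo, against 439.5 and 483 CPM in WT, a log2 difference of 0.97 (standard error 0.13, limma adjusted p = 0.000157). *Rps16* had 427, 382 and 327 CPM in H19Ter+neo, against 199 and 205 CPM in WT (log2 difference 0.90). *Rps12* had 673, 547 and 442 CPM, against 299.5 and 316 CPM in WT (0.83). Every H19Ter+neo library stood above WT in these 4 genes, which is part of the rule that named them. Replicate 7 was the lowest of the 3 H19Ter+neo libraries.

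*Rpl26*, a protein at the exit of the nascent chain, had 282, 390 and 284 CPM in H19Ter+neo, against 87.9 and 110 CPM in WT (log2 difference 1.68, standard error 0.14, limma adjusted p = 1.83e-05). *Rpl27* of the large subunit had 357, 326 and 253 CPM in H19Ter+neo, against 167 and 183 CPM in WT (log2 difference 0.82). *Rpsa*, the small subunit protein also known as a laminin receptor, had 777, 744 and 653 CPM, against 495 and 556 CPM in WT (0.46, limma adjusted p = 0.00106). The rise of all 3 held with each library left out.

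Among the falls, *Rpl11*, which binds MDM2 and so links ribosome assembly to p53, had 50.0, 44.2 and 30.2 CPM in H19Ter+neo, against 71.5 and 89.2 CPM in WT. Its log2 difference was -0.98 (standard error 0.18, limma adjusted p = 0.00117). *Rps3*, at the mRNA entry, had 340, 300.1 and 224 CPM in H19Ter+neo, against 424 and 464 CPM in WT (-0.65, limma adjusted p = 0.00289). *Rps29* had 78.9, 71.3 and 49.3 CPM, against 92.8 and 115 CPM in WT (-0.66), and *Rpl23*, which also binds MDM2, had 322, 340 and 223 CPM, against 390 and 476 CPM in WT (-0.57). No library of one genotype reached those of the other in these 4 genes, as the rule by which they were named requires. The calls of *Rps29* and *Rpl23* were lost without WT replicate 2 (limma adjusted p = 0.117 and 0.139). *Rpl13a*, known from the GAIT complex that represses translation, had 24.8, 20.8 and 19.7 CPM in H19Ter+neo, against 30.3 and 34.7 CPM in WT (-0.58, limma adjusted p = 0.00134), and *Rps10* had 8.98, 8.51 and 8.99 CPM, against 13.1 and 12.6 CPM in WT (-0.54).

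Expression in H19Ter, where the selection cassette had been removed, was compared with WT next, with the same WT libraries as above. Few genes were called, 3 higher (among them *Rpl26* and *Rpl39l*) and 6 lower (*Rpl34*, *Rplp0*, *Rps27l*, *Rps13*, *Rpl13a* and *Rps10*), at a median log2 difference of -0.19 (-0.0081 for all genes). These 9 are 10.8% of the set, against 25.1% of all genes tested (14.1% higher and 11.0% lower). With libraries scaled to the same total instead, 3 were higher and 4 lower, and over all genes 3454 were higher and 1309 lower in place of 2914 and 2273. Most of the set nevertheless leaned to the lower side, since 72 of 83 differences were negative, against 10500 of 20643 for all genes. In 47 genes (56.6%) both H19Ter libraries were below both WT libraries, against 35.0% of all genes, and in 7 (8.43%) they were above, against 32.4% (67.5% of all genes in either direction). This lean is of the size of the shift between libraries of one genotype, and the median moved between -0.30 and -0.10 when 1 library was left out.

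The number of calls in H19Ter against WT depended on the other libraries in the fit, since the 3 genotypes share one estimate of the spread. It was 44, 6 higher and 38 lower, when only H19Ter and WT were fitted, 31 without H19Ter+neo replicate 7 and 19 without H19Ter+neo replicate 5. Without WT replicate 1 or 2 it was 4 or 3, and without H19Ter replicate 3 or 4 it was also 4 or 3. *Rpl26*, *Rpl34* and *Rplp0* were called in every one of the 7 fits that left out 1 library. The other 6 lost the call in at least 3 of them.

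*Rpl34*, of the large subunit, fell to 71.4 and 61.1 CPM in H19Ter, against 118 and 123 CPM in WT, a log2 difference of -0.87 (standard error 0.14, limma adjusted p = 0.00319). In H19Ter+neo it had 142, 191 and 134 CPM, all above WT. *Rpl26* had 199 and 166 CPM in H19Ter, against 87.9 and 110 CPM in WT (log2 difference 0.89, standard error 0.16, limma adjusted p = 0.00423). *Rps13* had 110 and 94.0 CPM in H19Ter, against 142 and 160 CPM in WT (-0.57, limma adjusted p = 0.0373). *Rpl13a* had 23.4 and 23.7 CPM in H19Ter, against 30.3 and 34.7 CPM in WT (-0.46, limma adjusted p = 0.0206), and *Rps10* had 9.52 and 9.98 CPM, against 13.1 and 12.6 CPM in WT (-0.40, limma adjusted p = 0.0262).

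The mutants were then compared with each other, since they differ by the selection cassette. In this comparison most calls went one way, with 32 genes higher and 4 lower in H19Ter+neo than in H19Ter, at a median log2 difference of 0.26 (0.0097 for all genes). The 36 called are 43.4% of the set, and the 32 higher are 38.6%, against 27.7% and 12.5% of all genes tested (15.2% were lower). H19Ter+neo libraries were all above H19Ter in 34 genes (41.0%, against 28.2% of all genes) and all below in 9 (10.8%, against 28.1%), where 56.3% of all genes did one or the other. With libraries scaled to the same total 27 were higher and 7 lower, and over all genes 1848 were higher and 3930 lower in place of 2587 and 3130. The size of the lean followed single libraries. Without H19Ter+neo replicate 7 there were 52 higher and 3 lower at a median of 0.42, and without H19Ter replicate 3 or 4 there were 23 or 16 calls. The median stayed above 0 in all 7 fits that left out 1 library, at 0.16 or more.

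*Rps7* had 1101, 877 and 769 CPM in H19Ter+neo, against 415 and 354 CPM in H19Ter (log2 difference 1.24, standard error 0.13, limma adjusted p = 0.000186). *Rpl34* differed by almost as much (1.22, limma adjusted p = 0.000231), as its H19Ter libraries were below WT and its H19Ter+neo libraries above. *Rps12* (0.96), *Rpl27* (0.99) and *Rps16* (0.86) rose as well, and each held with every library left out. *Rps26* was higher by 1.21 (limma adjusted p = 0.042), but H19Ter+neo replicate 7, at 177 CPM, nearly met H19Ter replicate 4, at 175 CPM, and the call was lost in 6 of 7 fits that left out 1 library. The falls were *Rpl6l* (-1.94, limma adjusted p = 0.00012), *Rpl11* (-0.54), *Rps2* (-0.47) and *Rpl4* (-0.28), of which *Rpl6l* alone kept its call in every one of these fits.

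The P stalk, through which elongation factors meet the ribosome, is formed by *Rplp0* with pairs of *Rplp1* and *Rplp2*. *Rplp0* had 309, 338 and 338 CPM in H19Ter+neo and 339 and 293 CPM in H19Ter, against 509 and 541 CPM in WT. All 5 mutant libraries were well below both WT libraries. The log2 difference was -0.68 in H19Ter+neo (standard error 0.073, limma adjusted p = 5.24e-05) and -0.74 in H19Ter (standard error 0.080, limma adjusted p = 0.000528). *Rplp2* had 180, 161 and 126 CPM in H19Ter+neo and 197 and 163 CPM in H19Ter, against 197 and 216 CPM in WT, and passed in H19Ter+neo (-0.43, limma adjusted p = 0.0208) but not without either of the WT libraries. *Rplp1* spread widely, with 714, 388 and 221 CPM in H19Ter+neo and 219 and 204 CPM in H19Ter, against 338 and 386 CPM in WT, and did not pass in any comparison on the gene alone. Summed with its copy *Gm11942*, it passed in H19Ter+neo against H19Ter (log2 difference 0.87, limma adjusted p = 0.0386, in place of 0.90 with limma adjusted p = 0.0772). *Gm11942* itself split the H19Ter+neo libraries, at 3.72, 45.7 and 66.3 CPM. It had 39.7 and 28.5 CPM in H19Ter and 1.88 and 1.86 CPM in WT.

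The paralogues were set beside the gene each resembles, as a share of its CPM per kb. A shift that both genes share equally cancels in this share, and a shift of the parent gene alone does not. *Rpl39l*, known from mouse as a testis form of *Rpl39*, stood at 104%, 148% and 162% of *Rpl39* in H19Ter+neo and 122% and 140% in H19Ter, against 92.0% and 78.1% in WT. All 5 mutant libraries were above WT. Its own level was 132, 130 and 117 CPM in H19Ter+neo and 69.5 and 65.0 CPM in H19Ter, against 57.9 and 54.1 CPM in WT. The log2 difference was 1.17 in H19Ter+neo against WT (limma adjusted p = 4.33e-06) and 0.26 in H19Ter against WT (limma adjusted p = 0.0394). The second call was lost without any 1 of the 4 libraries compared. *Rpl39* itself had 219, 152 and 124 CPM in H19Ter+neo and 98.1 and 80.4 CPM in H19Ter, against 109 and 120 CPM in WT. Within H19Ter+neo the share thus rose from replicate 5 to replicate 7 as *Rpl39* fell and *Rpl39l* changed less.

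*Rps27l*, a p53 target in human cells, stood at 28.6%, 24.8% and 26.9% of *Rps27* in H19Ter+neo and 30.4% and 24.1% in H19Ter, against 40.2% and 37.2% in WT. All mutant libraries were below both WT libraries in this share. In H19Ter its level was 29.3 and 22.0 CPM, against 39.4 and 41.6 CPM in WT (log2 difference -0.67, limma adjusted p = 0.0324), and the call was lost without WT replicate 1 or 2 or H19Ter replicate 4. In H19Ter+neo *Rps27* rose (0.69, limma adjusted p = 0.00217), while *Rps27l* had 59.3, 42.5 and 36.4 CPM and overlapped WT.

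*Rpl10l*, an autosomal retrogene of the X-linked *Rpl10* needed for male meiosis in mouse, stood at 68.5%, 115% and 85.4% of *Rpl10* in H19Ter+neo and 77.4% and 82.0% in H19Ter, against 68.9% and 54.4% in WT. H19Ter+neo overlapped WT. *Rps4l* stood at 89.2%, 91.9% and 78.2% of *Rps4x* in H19Ter+neo and 98.5% and 108% in H19Ter, against 107% and 102% in WT, and its own level was lower in H19Ter+neo than in WT (-0.46, limma adjusted p = 0.0134), although not without either WT library. *Rpl3l*, known from mouse as the heart and skeletal muscle form of *Rpl3*, stood near 1% of *Rpl3*, from 0.489% to 1.16% over the 7 libraries. *Rpl6l* had 2.65, 1.83 and 1.85 CPM in H19Ter+neo and 8.70 and 7.43 CPM in H19Ter, against 8.87 and 8.40 CPM in WT. It was lower in H19Ter+neo than in WT by a log2 difference of -2.04 with a standard error of 0.18 (limma adjusted p = 2.09e-05). *Rpl32l* had 0.859, 0.872 and 0.707 CPM in H19Ter+neo, against 1.63 and 1.37 CPM in WT (-0.86, limma adjusted p = 0.0101), and lost the call without WT replicate 1.

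**Figure D4:**
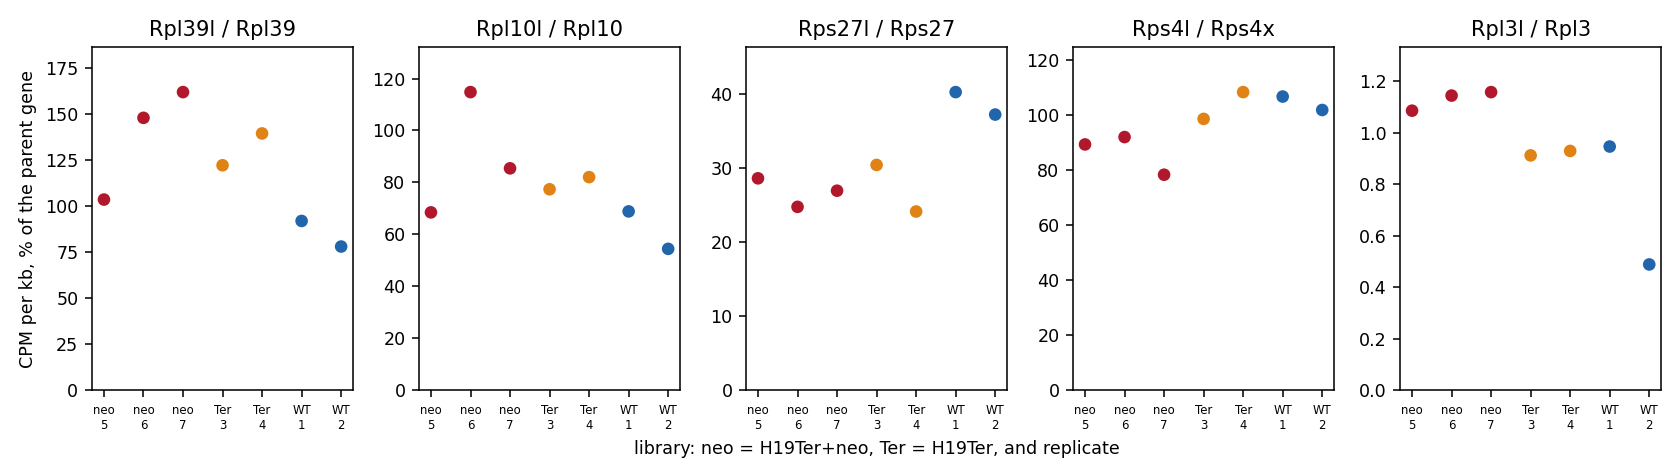
CPM per kb of 5 paralogues as a percentage of that of the parent gene in each of the 7 libraries (neo is H19Ter+neo and Ter is H19Ter), with 1 point per library and each axis starting at 0. *Rpl39l* lies above WT and *Rps27l* below WT in all 5 mutant libraries, and *Rpl10l* overlaps between H19Ter+neo and WT.

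Rows of pseudogenes were mostly lower in H19Ter+neo, and in H19Ter against WT their median difference was near that of the genes. Of 85 rows of named ribosomal protein pseudogenes, 9 were higher and 60 lower in H19Ter+neo than in WT (median log2 difference -1.66, against 27.7% and 26.7% of all genes called higher and lower), 2 were higher and 50 lower in H19Ter+neo than in H19Ter (-1.20, against 12.5% and 15.2% of all genes), and 10 were higher and 7 lower in H19Ter than in WT (-0.22). The 17 called in the last comparison are 20% of the rows, against 25.1% of all genes. Their summed level was 467, 344 and 461 CPM in H19Ter+neo and 551 and 501 CPM in H19Ter, against 545 and 576 CPM in WT. *Rpl6l* and *Rpl32l*, the 2 members annotated as processed pseudogenes, fell in the same comparison as most of these rows.

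Some copies were higher in every mutant library than in both WT libraries, and 4 of them are given here. *Rps13-ps1* had 37.8, 20.2 and 31.6 CPM in H19Ter+neo and 27.6 and 25.3 CPM in H19Ter, against 0.290 and 0.247 CPM in WT. *Rpl3-ps1* had 58.1, 76.6 and 70.0 CPM in H19Ter+neo and 46.0 and 70.9 CPM in H19Ter, against 3.46 and 3.48 CPM in WT. *Gm8730*, a copy of *Rplp0*, had 44.7, 32.2 and 20.4 CPM in H19Ter+neo and 27.3 and 22.0 CPM in H19Ter, against 1.97 and 1.33 CPM in WT. *Gm6472*, a copy of *Rps7*, had 44.4, 43.3 and 50.1 CPM in H19Ter+neo and 23.4 and 26.0 CPM in H19Ter, against 5.34 and 4.92 CPM in WT. The copies are 98.7% to 99.8% identical to their parent genes, and whether reads of the gene were placed on the copy was not tested.

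Read pairs of each gene were therefore also summed with those of its pseudogene rows, an alternative chosen after seeing the data. *Rpl26* and *Gm15772* moved in opposite directions in H19Ter, where *Gm15772* had 73.5 and 76.2 CPM, against 159 and 178 CPM in WT. In the sum of *Rpl26* with its copies the rise in H19Ter was gone (log2 difference -0.053, limma adjusted p = 0.814), and that in H19Ter+neo was 0.71 (limma adjusted p = 0.00121) in place of 1.68. *Gm15772* had 239, 62.8 and 74.9 CPM in H19Ter+neo, so that replicate 5 alone was above WT. *Rps26-ps1* had 141, 88.9 and 156 CPM in H19Ter+neo, against 140 and 164 CPM in WT, and the sum of *Rps26* with its copies rose by 1.09 (limma adjusted p = 0.00368) in place of 1.96. For *Rplp0* the falls were smaller but stayed, -0.46 in H19Ter+neo (limma adjusted p = 0.00031) and -0.54 in H19Ter (limma adjusted p = 0.00142). The fall of *Rps13* in H19Ter lost its call. *Rps7* kept its rise in H19Ter+neo against WT (1.02), and the difference of *Rpl34* there was 0.28 in the sum (limma adjusted p = 0.0723) and 0.35 on the gene alone (limma adjusted p = 0.0452), a call also lost in 5 of the 7 fits that left out 1 library. Of the calls made on the genes alone, 35 of 39 in H19Ter+neo against WT, 7 of 9 in H19Ter against WT and 32 of 36 in H19Ter+neo against H19Ter were also made on the sums.

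**Figure D5:**
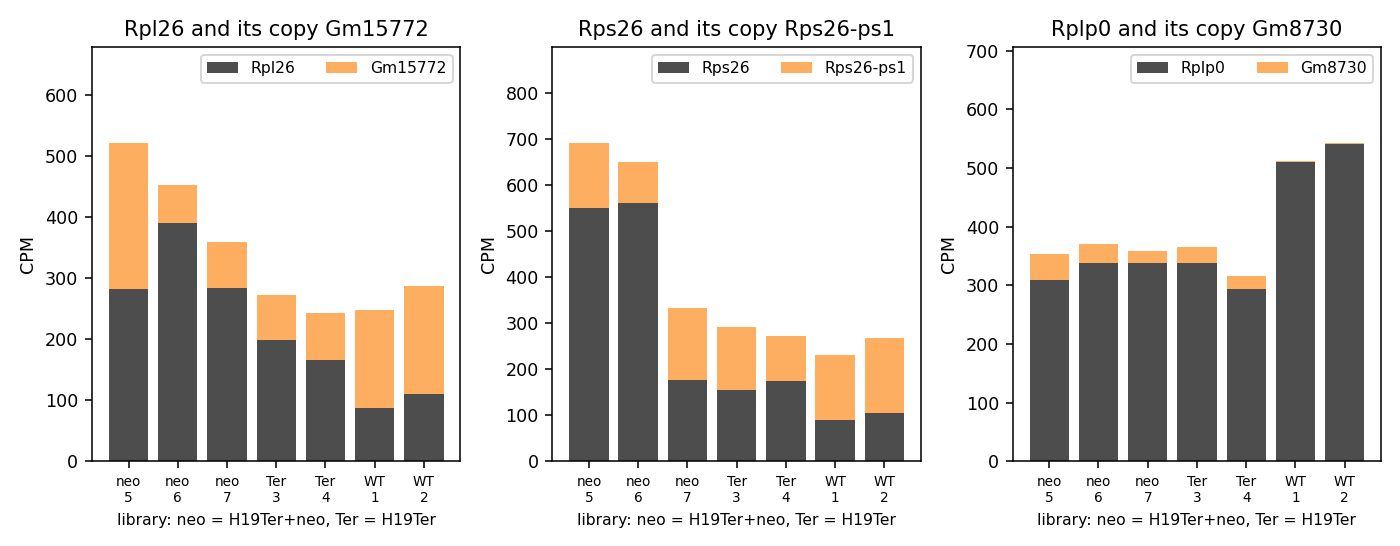
CPM of *Rpl26*, *Rps26* and *Rplp0* (dark) with the CPM of 1 pseudogene copy each stacked on top (orange) in each of the 7 libraries (neo is H19Ter+neo and Ter is H19Ter). *Rpl26* with *Gm15772* reaches about the same height in H19Ter and WT, and *Gm8730* is visible in the mutants and scarcely in WT.

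Genes that have no pseudogene row named with -ps in the table were counted apart. Copies under other names remain beside many of them. Among them are *Rplp1*, with its copy *Gm11942*, and *Rpl6l*, whose pseudogene rows held 59.1% of the summed reads. Of these 38 genes 10 were higher and 9 lower in H19Ter+neo than in WT (median log2 difference 0.03), which is 26.3% and 23.7%, near the 27.7% and 26.7% of all genes. In H19Ter+neo against H19Ter 11 were higher and 3 lower (0.19), or 28.9% and 7.89%, against 12.5% and 15.2% of all genes. In H19Ter against WT 1 was higher and 1 lower (-0.20), or 5.26% called, against 25.1% of all genes. Across the 83 genes the log2 differences were weakly related to GC content (Spearman's rho -0.16 in H19Ter+neo against WT) and to the share of windows held by other genes (-0.050). These are descriptions across genes of the same libraries, which are not independent replicates.

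Genes that make the ribosome were counted beside its proteins. Of 43 ribosome biogenesis genes 1 was higher and 26 lower in H19Ter+neo than in WT (median log2 difference -0.29). The lower genes are 60.5% of the list, against 26.7% of all genes. In H19Ter none was higher and 8 were lower than in WT (-0.18), or 18.6%, against 11.0% of all genes. *Nolc1*, a nucleolar phosphoprotein, had 33.6, 30.4 and 27.5 CPM in H19Ter+neo and 80.5 and 69.9 CPM in H19Ter, against 90.2 and 112 CPM in WT (H19Ter+neo against WT -1.73, limma adjusted p = 5.17e-06). *Tcof1*, which supports transcription of ribosomal DNA, had 37.7, 40.0 and 36.0 CPM in H19Ter+neo, against 74.7 and 86.1 CPM in WT (-1.08). Of 14 RNA polymerase I genes with a value, 1 was higher and 8 (57.1%) lower in H19Ter+neo than in WT, against 26.7% of all genes lower, among them the RNA polymerase I subunit *Cd3eap* (-1.37) and the activator *Ubtf* (-0.61). In H19Ter 1 was higher and 4 (28.6%) lower than in WT, against 11.0% of all genes lower.

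The next list holds 18 genes for mTORC1 and the control of ribosomal protein mRNAs. It mixes activators, inhibitors and transcription factors, so that its counts give no direction of mTORC1 activity, which was not tested. In H19Ter+neo 11 of the 18 were lower than in WT and none was higher (median log2 difference -0.38). The lower genes are 61.1% of the list, against 26.7% of all genes. In H19Ter 5 (27.8%) were lower than in WT and none was higher, against 11.0% of all genes lower. *Larp1*, the protein that binds the 5′ pyrimidine tract, had 223, 217 and 212 CPM in H19Ter+neo and 384 and 359 CPM in H19Ter, against 349 and 360 CPM in WT (-0.71, limma adjusted p = 1.4e-05). H19Ter overlapped WT for *Larp1*. *Deptor*, an inhibitor of mTOR, was lower by a log2 difference of -1.17 and *Mycn*, an activator of ribosome genes, by -1.23. Of 17 translation initiation genes 1 was higher and 9 (52.9%) lower in H19Ter+neo than in WT, against 26.7% of all genes lower. The log2 difference of *Eif4g1*, the scaffold of the cap-binding complex, was -0.88. In H19Ter 7 of the 17 (41.2%) were lower than in WT and none was higher, against 11.0% of all genes lower. The list of 13 other genes whose mRNAs also carry the tract holds translation factors together with *Tpt1*, *Nap1l1* and *Hnrnpa1*. Of these 13, 3 were higher and 4 lower in H19Ter+neo than in WT, or 53.8% called, near the 54.4% of all genes. In H19Ter 1 was higher and none lower than in WT, or 7.69% called, against 25.1% of all genes. Of the 7 ribosomal protein genes that the symbol rule leaves out 2 were higher and 2 lower in H19Ter+neo than in WT. These are 57.1% of the list, near the 54.4% of all genes called. None was called in H19Ter against WT, where 25.1% of all genes were. Among those 7, *Fau*, which encodes a small subunit protein fused to a ubiquitin-like domain, had 180, 174 and 136 CPM in H19Ter+neo, against 107 and 117 CPM in WT (0.53, limma adjusted p = 0.00225).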

How the data were processed

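Per the paper and the submitters' processing notes, Trim Galore 0.6.0 was used for trimming, and alignment to mm10 and counting per gene were done in STAR 2.7.8. deepTools and edgeR are also named. Neither strand setting nor annotation release of the counting was stated. As deposited by the authors, the table holds log2 CPM of scaled libraries with a prior count of 2. Undoing both gave whole read pairs for 100% of values (tolerance 0.0001 of a read).

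A single limma model covered all 7 libraries on the log2 scale (limma 3.58.1, R 4.3.3), with a mean-variance trend and genotype as the factor. The planned pseudocount for linear CPM was not needed. The p-values were two-sided and adjusted by Benjamini-Hochberg over 20643 genes, at a threshold of 0.05. The fit was tested on simulated data. Names, coordinates and lengths came from GENCODE vM21, and promoter windows from RefSeq. Figures used matplotlib 3.10.9 in Python 3.11.15.

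Named genes are the 8 largest rises and the 8 largest falls of each comparison among called genes without overlap of libraries, the 5 highest and 5 lowest per length in WT, the stalk genes, *Rpsa*, and paralogues with their parents, and from other lists up to 3 genes with the smallest p. *Rps18* and the pseudogene copies fall outside the rule and were chosen after their values were seen. The members and lists were chosen with earlier results of these data known. Alternatives were other scalings, prior counts and filters, voom, thinning to one depth, removal of GC and length trends, fits of 2 groups, each library left out, and sums with pseudogene rows. The values of 1 gene of the set are not reported here, although it is included in the counts.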

Additional observations from a re-analysis of the deposited data

How the results depend on the processing

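No paired analysis was possible because the replicate numbers do not repeat between genotypes. Scaling by the median ratio, a prior count of 5, a filter at a mean log2 value of 1, thinning to the smallest library and removal of GC and length trends kept each count of called ribosomal protein genes within 1.5 times, and so did scaling to the same total, voom and sums with pseudogene rows. The median difference kept its sign in all alternatives but 1, as it was -0.041 for H19Ter+neo against WT without H19Ter+neo replicate 5, with a range of -0.041 to 0.22 over single libraries left out. For H19Ter against WT the count of 9 was 44 in a fit of these 2 groups only, and it was 3 to 31 with 1 library left out. For H19Ter+neo against WT the count of 39 was 22 to 54, and for H19Ter+neo against H19Ter the count of 36 was 16 to 55. Leaving out genes with a pseudogene row named with -ps left 38 genes, some of which have copies under other names. Of these 38, 2, 19 and 14 were called in H19Ter against WT, H19Ter+neo against WT and H19Ter+neo against H19Ter. Over all genes H19Ter against WT gave 5187 calls, 3092 with voom and 1408 to 5870 with 1 library left out, and H19Ter+neo against H19Ter gave 5717, and 2326 to 5404 with 1 library left out. Among single genes, *Rpl26* in H19Ter against WT turned to -0.053 in the sum with its copies. The alternative with no filter was the same fit, as no filter was applied. The cause of these changes was not tested. Groups of 2 or 3 libraries limit the precision, and the genes of lowest count, such as *Rpl3l*, rest on the fewest reads.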
